A study of Danio rerio with 24 samples.

Results

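The cytochrome P450 genes were examined in the livers of 24 adult zebrafish of the ABTL strain, 12 males and 12 females, from a study of swim training and overfeeding. Members were all genes whose symbol starts with cyp and a digit, with cyp51, cyp7a1 and cyp8b1 left out, and with 10 or more estimated counts in at least 6 of the 24 fish. Of 32520 genes, 86 carried a P450 symbol, 5 of these belonged to the excluded genes and 61 of the other 81 met the count rule. The 20 genes that did not reached 10 counts in at most 5 fish, and they included the steroid-producing enzymes of gonad and interrenal tissue (CYP11A1, CYP17A1, cyp17a2, CYP19A1, cyp11c1 and cyp21a2).

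The 4 groups held 3 males and 3 females each. OF-training fish were overfed and trained, NF-training fish were normally fed and trained, OF-control fish were overfed and untrained, and NF-control fish were normally fed and untrained. Overfeeding meant 9 mL of live shrimp per fish over the morning besides dry food, and training meant 20 swim sessions over 8 weeks. All fish were of the same strain and lived in tanks of 6. The tank of each fish was not given, so a difference between groups and a difference between tanks cannot be told apart.

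P450 enzymes hold a heme group and use oxygen and electrons from NADPH to oxidise fat-soluble molecules. Most sit in the endoplasmic reticulum, where P450 reductase and cytochrome b5 feed them electrons, and a smaller number, among them the CYP27 and CYP24 enzymes, sit in mitochondria and depend on ferredoxin. The liver is known for P450s that clear drugs and pollutants (CYP1, CYP2 and CYP3) and hydroxylate fatty acids (CYP4). Other P450s, not all of them typical of liver, turn cholesterol into oxysterols and bile acids (CYP27A, CYP46A and CYP39A). Further P450s make or break down vitamin D and retinoic acid (CYP2R, CYP27B, CYP24 and CYP26). In mammals many liver P450s differ between the sexes.

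The 61 members fell into 10 families and 26 subfamilies. The CYP2K subfamily had 8 members, CYP27A, CYP2AA and CYP2X had 6 each, CYP2P had 5, CYP3C had 4, CYP2AD and CYP46A had 3 each, and CYP1C and CYP4V had 2 each, while the other 16 subfamilies had 1. All 24 fish reached 10 counts in 36 members. The count rule was met through 1 sex alone by 5 members: cyp1c2, cyp2aa3, cyp2ae1 and cyp2k31 had 10 counts in fewer than 6 females, and cyp2k6 had them in no male. The name table gave the symbol CYP27A1 to 3 members and CYP4V2 to 2, which are therefore named with their Ensembl identifiers.

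The libraries held between 19315642 and 21399321 estimated counts. Vitellogenin, the yolk precursor made by female liver, took 29.3 to 74.5% of the counts of a female and at most 0.159% of the counts of a male, which left fewer counts for P450 genes in females. Hepatocyte markers were present in every fish (summed TPM, a length-scaled unit, of 7 genes 161421 to 266356 in males and 29508 to 158793 in females), and markers of oocytes, testis and interrenal cells summed to at most 4.63, 2.02 and 0.804 TPM. Libraries that stood apart were a trained normally fed female (NF-training replicate 3), with the lowest vitellogenin share and the highest bile duct marker sum (661 TPM), and an untrained normally fed male (NF-control replicate 4), in which the intestinal genes fabp2, vil1 and cdx1b reached 704, 198 and 37.7 CPM (CPM, counts scaled to a common TMM-scaled library size) against at most 16.0, 2.78 and 5.07 CPM in the other fish.

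Per transcript length, the most abundant P450 transcripts of the liver belonged to the CYP1, CYP2 and CYP3 families. Averaged over the 24 fish, cyp2k22 had 462 TPM, cyp2ad2 352 TPM, CYP1A1 227 TPM, cyp3a65 224 TPM, cyp2n13 193 TPM and cyp2y3 128 TPM. These were the 6 members above a mean of 100 TPM, and 9 members stayed under a mean of 1 TPM. CYP4V2 ENSDARG00000062132, cyp4t8, cyp2x8 and CYP4V2 ENSDARG00000061585 followed with means of 96.9, 70.5, 62.6 and 60 TPM.

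The order of levels differed between the sexes. In males cyp2k22 came first with a median of 942 TPM (lowest 406 TPM, highest 1143 TPM, n = 12), followed by cyp2ad2 with 426 TPM, cyp3a65 with 362 TPM, CYP1A1 with 300 TPM and cyp2n13 with 279 TPM. In females cyp2ad2 came first with 254 TPM (117 to 545 TPM, n = 12), followed by CYP1A1 with 144 TPM, cyp2n13 with 118 TPM, cyp2k6 with 93.3 TPM and cyp2y3 with 85.9 TPM. Neighbours in either order had overlapping ranges over the fish. A share of 24.2% of the summed P450 TPM of a male was cyp2k22 (median, 10.9 to 37.9%), against 0.0695% in females (0.0237 to 0.870%). The share of cyp2k6 was 0.00219% in males (0 to 0.00611%) and 6.89% in females (2.09 to 11.4%).

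**Figure D1:**
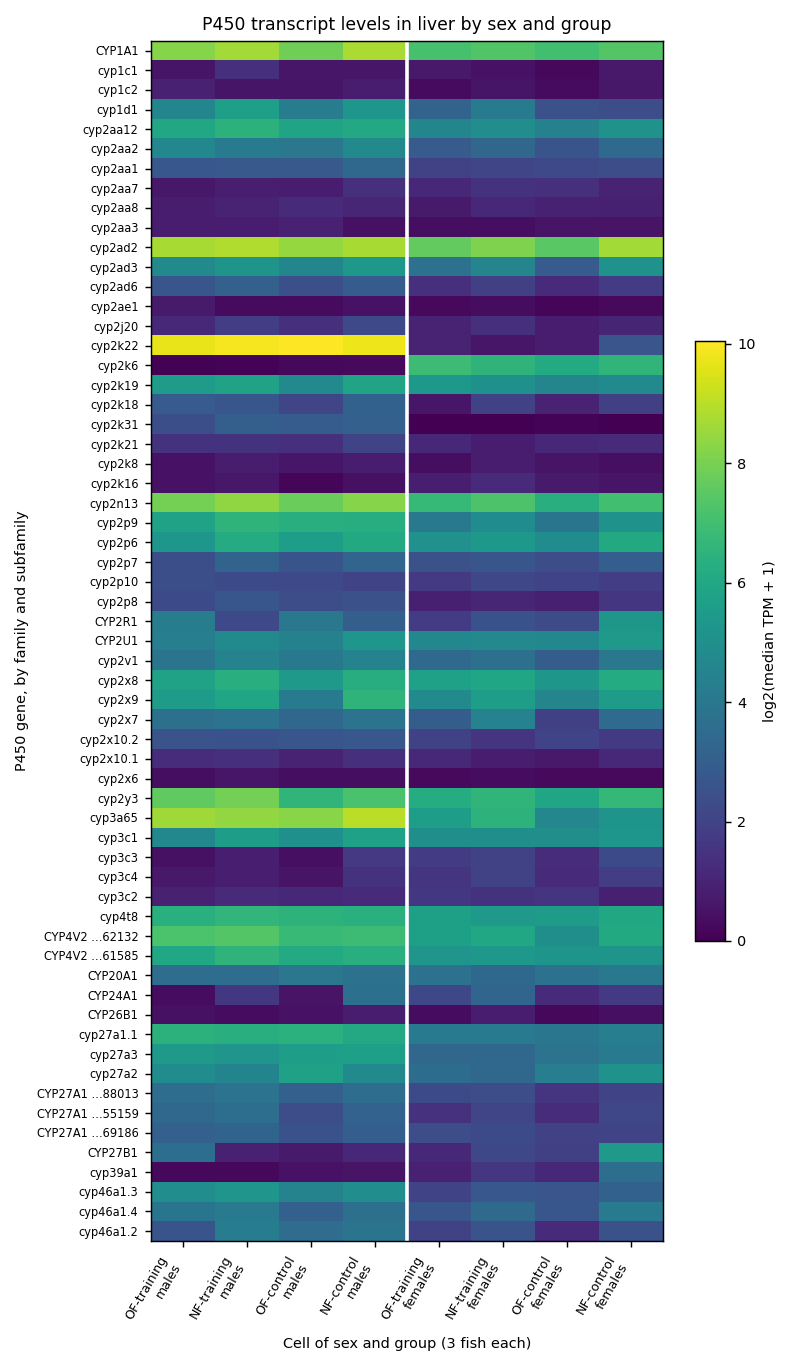
Levels of the 61 P450 genes as log2 of the median TPM plus 1 over the 3 fish of each sex and group, with males in the left columns, females in the right columns and genes ordered by family and subfamily. The row of cyp2k22 is bright in males and dark in females, cyp2k6 is the reverse, and cyp2ad2, CYP1A1 and cyp2n13 are bright in all 8 columns.

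Summed over the 61 members, P450 transcripts made up 2855 to 4348 TPM in males (median 3688 TPM) and 713 to 2774 TPM in females (median 1463 TPM). TPM sums to the same total in every fish, so yolk transcripts lower every other value in a female. Rescaled without the vitellogenin genes, the sum was 2855 to 4348 TPM in males and 1153 to 3391 TPM in females (median 2044 TPM). The sexes did not overlap before the rescaling and overlapped after it. In bulk liver, fewer cells of a type and less RNA per cell cannot be told apart.

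Male and female livers were then compared gene by gene with edgeR's quasi-likelihood test over all 16223 genes tested, with group as a covariate and p-values adjusted by the Benjamini-Hochberg method (a call is an adjusted p under 0.05). Of the 61 P450 genes, 28 were called (45.9%), 16 higher and 12 lower in males. The share of all genes called was 45.8%, with 23.2% higher and 22.6% lower in males, so the share of P450 genes called was close to that of all genes. The median log2 fold change, males over females, was 0.20 for the P450 genes and 0.06 for all genes. Of the 28, 18 differed more than 2-fold, and the share of all called genes that did so is not given here. Leaving out the 5 genes that met the count rule through 1 sex alone, 26 of 56 were called (46.4%), 15 higher and 11 lower.

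The direction of a call depended on the scaling. The values given here are relative to TMM scaling, which centres on the bulk of genes. Scaling by library size alone, which counts the yolk transcripts in the total, moved the median of all genes to 1.44 and called 49 P450 genes, 48 higher and 1 lower in males. On log2(TPM + 1) 41 were called, 37 higher and 4 lower, with a median of all genes of 0.36, and on log2(TPM + 0.1) 42 were called, 36 higher and 6 lower, with a median of 0.65. Without NF-training replicate 3 the count was 31, and without NF-control replicate 4 it was 28. Shares of all genes called under these settings are not given here.

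Called genes were chosen over the same fish, so their signs within groups are a description. The sign was the same in all 4 groups for all 16 genes higher in males and for 10 of the 12 lower, the exceptions being cyp3c3 and CYP27B1, and it was the same for 93.2% of all genes called. Within single groups of 3 males and 3 females, 15 P450 genes were called in OF-training (24.6%, against 18.7% of all genes), 11 higher and 4 lower in males. In NF-training 10 were called (16.4%, against 10.1%), 6 higher and 4 lower. In OF-control 13 were called (21.3%, against 20.6%), 8 higher and 5 lower. In NF-control 6 were called (9.84%, against 14.2%), 4 higher and 2 lower. Without NF-training replicate 3 the NF-training count was 6, and without OF-training replicate 3 the OF-training count was 8. The 3 genes called in every group were cyp2k6, cyp2k22 and cyp2k31, and the share of all genes called in every group is not given here. Both cyp2k6 and cyp2k31 met the count rule through 1 sex alone, so they are named as a description. The CPM of males and females did not overlap in 6 P450 genes (9.84%, against 5.79% of all genes), 5 with all males above all females and 1 with all males below. Of these, cyp2k31 and cyp2k6 met the count rule through the sex in which they were high, and of the 56 members that did not meet it through 1 sex alone 4 did not overlap (7.14%).

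**Figure D2:**
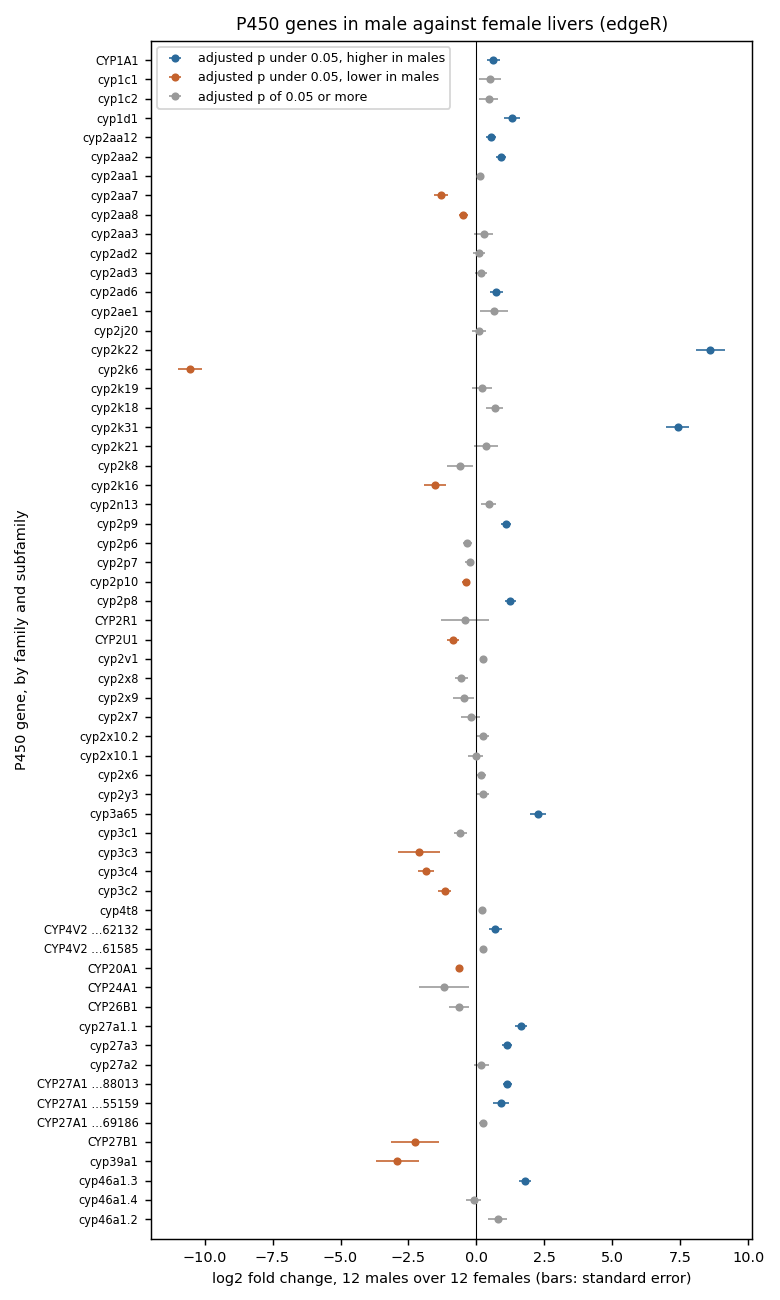
Log2 fold change of each P450 gene in 12 males over 12 females, with bars for the standard error (edgeR, sex contrast with group as covariate), coloured by the call and ordered by family and subfamily. The members cyp2k22 and cyp2k31 lie far to the right at 8.60 and 7.40, cyp2k6 lies far to the left at -10.52, and the called CYP27A genes lie to the right while the called CYP3C genes lie to the left.

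The CYP2K subfamily held the largest sex differences of the family, in both directions. It is a fish subfamily, and the rainbow trout enzyme CYP2K1 hydroxylates fatty acids and activates aflatoxin. Of its 8 members 2 were higher in males, 2 were lower and 4 were not called. Of all genes, 23.2% were higher and 22.6% lower. The members cyp2k31 and cyp2k6 met the count rule only through the sex in which they were high, so their differences are given as a description. The gene cyp2k22 had 367 to 966 CPM in males (median 839 CPM) and 0.390 to 14.1 CPM in females (median 1.18 CPM). The lowest male lay above the highest female by a wide margin. The log2 fold change was 8.60 (SE 0.54, adjusted p = 2.56e-11). Over all fish of a sex, 332465 counts were assigned to it in males and 385 in females.

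The gene cyp2k31 was low in males and close to absent in females. It had 3.08 to 8.91 CPM in males (median 5.29 CPM) and 0 to 0.192 CPM in females, with 0 counts in 9 of 12 females and 4 counts in the other 3 together. Its log2 fold change was 7.40 (SE 0.41). All 3 females of each trained group were at 0. Against the level that 3 counts over those females would give, a chosen floor, the male mean was 48.4-fold higher in OF-training fish and 88.3-fold higher in NF-training fish. The spread between fish does not enter these values, so they are a description.

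The gene cyp2k6 ran the other way. It had 0 to 0.215 CPM in males (median 0.0709 CPM) and 73.1 to 331 CPM in females (median 145 CPM). Every female lay above every male, and 40 counts were assigned to it over all males against 20867 over all females. The log2 fold change was -10.52 (SE 0.44). The lowest female values were 73.1 CPM in NF-control replicate 1 and 77.3 CPM in NF-training replicate 3, the 2 females with the lowest vitellogenin shares, 45.8 and 29.3%. The next lowest, 85.5 CPM in OF-control replicate 6 and 88.4 CPM in OF-training replicate 3, came with high shares, 71.5 and 72.7%. A relation to vitellogenin was not tested.

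Other CYP2K genes did not share these patterns. The second CYP2K gene lower in males was cyp2k16, with 0.0530 to 0.779 CPM in males and 0.170 to 3.31 CPM in females (log2 fold change -1.51, SE 0.40, adjusted p = 0.00384). The most abundant of the uncalled members, cyp2k19, had 35.1 to 195 CPM in males and 12.1 to 208 CPM in females (log2 fold change 0.20, SE 0.38, adjusted p = 0.693). In the RefSeq gene order, cyp2k18, cyp2k20, cyp2k19, cyp2k21, cyp2k17, cyp2k16, cyp2k8 and cyp2k6 follow each other with no other protein-coding gene between them. The gene cyp2k6 thus lies in 1 run with members that were not called, while cyp2k22 lies elsewhere. Estimated counts were not whole (more than 0.001 from a whole number) in 5 of 24 fish for cyp2k6, 12 for cyp2k31 and 14 for cyp2k22, which marks reads that were shared out between similar transcripts, so counts within this subfamily are uncertain to that extent.

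**Figure D3:**
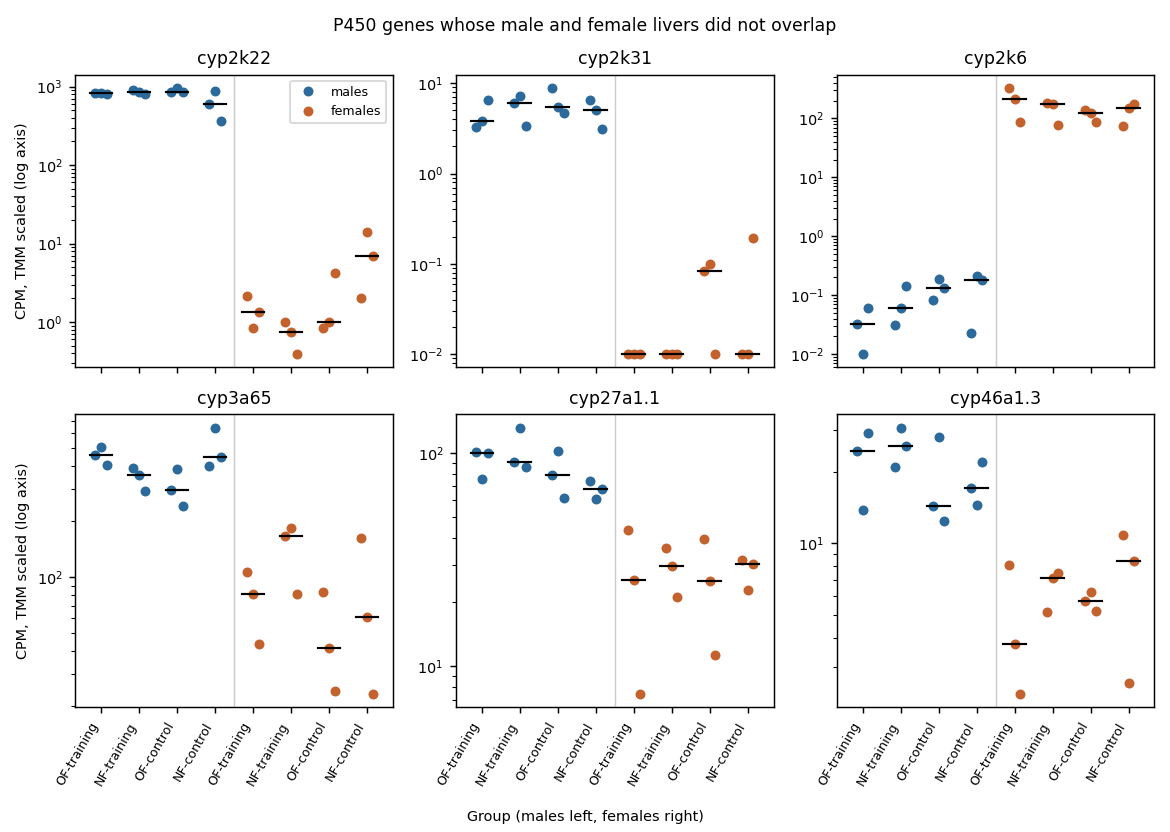
CPM of each fish on a log axis (values under 0.01, among them 0, are drawn at 0.01) for the 6 P450 genes whose male and female values did not overlap, with males left, females right, groups along the x axis and a bar at the median of the 3 fish. The genes cyp2k22 and cyp2k31 separate the sexes by an order of magnitude or more in every group, cyp2k6 does so in the other direction, and cyp3a65, cyp27a1.1 and cyp46a1.3 separate them by less.

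Among CYP3 genes, the single CYP3A member was higher in males and 3 of 4 CYP3C members were lower. Over all genes tested, 23.2% were higher and 22.6% lower. The gene cyp3a65 belongs to the CYP3A subfamily, whose mammalian members oxidise a wide range of drugs and steroids and are under control of the pregnane X receptor. It had 242 to 643 CPM in males (median 393 CPM) and 23.3 to 185 CPM in females (median 81.1 CPM), with no overlap. Its log2 fold change was 2.27 (SE 0.29, adjusted p = 9.57e-07), and it was called in 3 of the 4 groups, with NF-training as the exception.

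In zebrafish cyp3a65 is expressed in intestine as well as liver, and intestinal markers were also higher in males. The 4 markers (fabp2, vil1, cdx1b and apoa4b.1), none of them at 0 in all fish, summed to 635 to 3357 TPM in males and 132 to 576 TPM in females. By far the most abundant of them, apoa4b.1, is also made in liver and had 94.8 to 1085 CPM over the 24 fish. Their part in the difference of cyp3a65 was not tested. The male with the highest intestinal markers, NF-control replicate 4, had 399 CPM of cyp3a65, inside the range of the other males. Leaving out any single fish gave log2 fold changes of 2.21 to 2.50. These values concern single fish, and the markers were higher over the males as a set. Such values do not test the part of the markers.

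The CYP3C genes are fish relatives of CYP3A. Of the 4, cyp3c4, cyp3c2 and cyp3c3 were lower in males and cyp3c1 was not called (log2 fold change -0.59, SE 0.25, adjusted p = 0.0578), and with library size scaling cyp3c2 and cyp3c1 turned to 0.26 and 0.71. The gene cyp3c4 had 0.477 to 6.19 CPM in males (median 0.862 CPM) and 2.12 to 7.30 CPM in females (median 4.06 CPM), and the overlap came from 2 NF-control males, replicates 4 and 6, with 6.19 and 2.19 CPM. Its log2 fold change was -1.85 (SE 0.28, adjusted p = 1.08e-05). The gene cyp3c2 had 0.371 to 1.32 CPM in males and 0.768 to 3.63 CPM in females (log2 fold change -1.17, SE 0.23, adjusted p = 0.000231). The 4 CYP3C genes are neighbours in the RefSeq order.

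The gene cyp3c3 rested on single fish to a large extent. It had 0.160 to 18.6 CPM in males (median 1.15 CPM) and 1.98 to 129 CPM in females (median 4.88 CPM). The highest male was NF-control replicate 4 and the highest female was NF-training replicate 3, while the next highest female had 7.39 CPM. The log2 fold change was -2.11 (SE 0.77, adjusted p = 0.0292), -1.36 without NF-training replicate 3 and -2.69 without NF-control replicate 4, and the call was lost without NF-training replicates 4, 5 or 6 or OF-training replicate 1 (adjusted p 0.0514 to 0.0637). NF-training replicate 3 was also the fish with the highest cyp3c1, 224 CPM against at most 62.6 CPM in any other fish.

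Of the sterol hydroxylases, 4 of 6 CYP27A and 1 of 3 CYP46A members were higher in males and none was lower, against 23.2% of all genes higher. CYP27A1 is the mitochondrial sterol 27-hydroxylase of bile acid synthesis, and CYP46A1 is known in mammals as the cholesterol 24-hydroxylase of the brain. The gene cyp27a1.1 had 60.8 to 131 CPM in males (median 82.6 CPM) and 7.44 to 43.5 CPM in females (median 27.4 CPM), with no overlap, for a log2 fold change of 1.66 (SE 0.22, adjusted p = 1.88e-06). The gene cyp46a1.3 had 12.5 to 30.7 CPM in males (median 21.6 CPM) and 2.32 to 10.8 CPM in females (median 5.96 CPM), also with no overlap, for a log2 fold change of 1.79 (SE 0.23, adjusted p = 9.55e-07).

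The other called CYP27A genes overlapped between the sexes. CYP27A1 ENSDARG00000088013 had 5.65 to 13.6 CPM in males and 2.04 to 8.40 CPM in females (log2 fold change 1.14, SE 0.18, adjusted p = 1.56e-05). The gene cyp27a3 had 28.6 to 59.0 CPM in males and 7.12 to 31.1 CPM in females (log2 fold change 1.13, SE 0.19, adjusted p = 5.24e-05). CYP27A1 ENSDARG00000055159 was also higher, with a log2 fold change of 0.91 (SE 0.31, adjusted p = 0.0195). The genes cyp27a2 and CYP27A1 ENSDARG00000069186 were not called, with log2 fold changes of 0.18 and 0.25. Counts of the 3 genes named CYP27A1 and of cyp27a1.1 were not whole in any of the 24 fish, so their reads were shared between similar transcripts, while those of cyp27a2 and cyp27a3 were whole in all fish.

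The oxysterol hydroxylase gene cyp39a1 was lower in males. CYP39A1 is known from mammals to 7α-hydroxylate 24-hydroxycholesterol, the product of CYP46A1. It had 0.0613 to 6.14 CPM in males (median 0.337 CPM) and 0.193 to 24.6 CPM in females (median 5.10 CPM). The ranges overlapped, since 2 males reached 4.58 and 6.14 CPM and 2 females stayed at 0.193 and 0.424 CPM. Its log2 fold change was -2.91 (SE 0.80, adjusted p = 0.00498).

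Some genes of the CYP1 family are induced through the aryl hydrocarbon receptor by dioxins and polycyclic hydrocarbons. In this family 2 of 4 genes were higher in males. The share of all genes higher in males was 23.2%. The gene cyp1d1 had 9.28 to 87.3 CPM in males (median 34.2 CPM) and 3.19 to 38.0 CPM in females (median 16.5 CPM), with a log2 fold change of 1.3 (SE 0.30, adjusted p = 0.00104). CYP1A1 had 262 to 628 CPM in males (median 430 CPM) and 92.3 to 444 CPM in females (median 324 CPM), with a log2 fold change of 0.61 (SE 0.24, adjusted p = 0.0422). The call for CYP1A1 was lost when any 1 of 7 males was left out (NF-control replicates 5 and 6, OF-control replicate 2, NF-training replicates 5 and 6, OF-training replicates 5 and 6), with adjusted p up to 0.0693. Neither CYP1C gene was called, and the more abundant one, cyp1c1, had 0.256 to 3.47 CPM in males and 0.301 to 2.20 CPM in females.

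The CYP2AD, CYP2N, CYP2P, CYP2V and CYP2J genes lie in a run of 11 P450 genes in the RefSeq order and are related to the mammalian CYP2J epoxygenases of arachidonic acid. Genes within the run moved in different directions: cyp2p8, cyp2p9 and cyp2ad6 were higher in males, cyp2p10 was lower, and the other 7 were not called. The share called over all genes was 45.8%. The gene cyp2p8 had 3.15 to 6.3 CPM in males and 0.802 to 3.94 CPM in females (log2 fold change 1.24, SE 0.20, adjusted p = 1.87e-05). The gene cyp2p9, the most abundant of its subfamily, had 68.2 to 126 CPM in males and 24.0 to 82.3 CPM in females (log2 fold change 1.09, SE 0.19, adjusted p = 6.07e-05). The value for cyp2p10 was -0.40 (SE 0.13, adjusted p = 0.0188), it turned to 1.0 with library size scaling, and its call was lost when any 1 of 6 females was left out (NF-control replicates 1 and 3, OF-control replicates 5 and 6, NF-training replicate 2 and OF-training replicate 2, adjusted p up to 0.0960). The 2 most abundant genes of the run did not pass the test, cyp2ad2 with 168 to 682 CPM in males and 161 to 605 CPM in females (log2 fold change 0.09, SE 0.22) and cyp2n13 with 84.0 to 306 CPM in males and 22.5 to 212 CPM in females (log2 fold change 0.45, SE 0.27).

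CYP2AA, a subfamily of fish, held calls in both directions, 2 of 6 members each way, beside 23.2% of all genes higher and 22.6% lower. The genes cyp2aa2 and cyp2aa12 were higher in males, with log2 fold changes of 0.90 and 0.54, and cyp2aa7 and cyp2aa8 were lower, with -1.29 and -0.48. The gene cyp2aa12, the most abundant of the 6, had 48.6 to 100 CPM in males and 20.7 to 80.1 CPM in females (SE 0.18, adjusted p = 0.0155). The gene cyp2aa7, its neighbour in the gene order apart from cyp2aa6, had 0.186 to 1.08 CPM in males and 0.672 to 3.44 CPM in females (SE 0.26, adjusted p = 0.000282). The call for cyp2aa8 was lost when any 1 of 5 females was left out (NF-control replicate 2, OF-control replicates 5 and 6, NF-training replicate 2 and OF-training replicate 3). Without NF-control replicate 2 the value was -0.31 (adjusted p = 0.115), and with library size scaling it turned to 0.96.

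None of the 6 CYP2X genes was called, against 45.8% of all genes. The most abundant, cyp2x8, had 7.95 to 85.0 CPM in males and 25.8 to 112 CPM in females (log2 fold change -0.55, SE 0.25, adjusted p = 0.0783). The gene cyp2y3 was not called either, with 34.5 to 310 CPM in males and 53.3 to 252 CPM in females (log2 fold change 0.23, SE 0.24). CYP2U1, which hydroxylates long-chain fatty acids, was lower in males, with 14.7 to 33.0 CPM in males and 9.46 to 63.7 CPM in females (log2 fold change -0.87, SE 0.21, adjusted p = 0.00166). CYP20A1, an orphan P450 with no known substrate, was lower in males with little spread, at 8.21 to 14.5 CPM in males and 12.7 to 23.5 CPM in females (log2 fold change -0.65, SE 0.11, adjusted p = 6.42e-05). With library size scaling CYP2U1 and CYP20A1 turned to 0.61 and 0.75.

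Of 3 fatty acid hydroxylases of the CYP4 family, 1 was called between the sexes, against 45.8% of all genes. CYP4V2 ENSDARG00000062132 was higher in males, with 66.0 to 207 CPM in males and 29.9 to 137 CPM in females (log2 fold change 0.70, SE 0.23, adjusted p = 0.0148). CYP4V2 ENSDARG00000061585 had 117 to 208 CPM in males and 90.4 to 186 CPM in females (log2 fold change 0.25, SE 0.11, adjusted p = 0.0742). The gene cyp4t8 had 55.1 to 101 CPM in males and 54.2 to 93.3 CPM in females (log2 fold change 0.21, SE 0.11, adjusted p = 0.115). CYP4V2 ENSDARG00000061585 and cyp4t8 varied little within sex and group, with standard deviations of log2 CPM of 0.206 and 0.195, and of the 61 members CYP20A1 alone varied less (0.185).

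The vitamin D genes were among the 4 members that varied most between fish of the same sex and group. CYP2R1 makes 25-hydroxyvitamin D, CYP27B1 turns it into the active hormone and CYP24A1 breaks both down. CYP27B1 had 0.533 to 27.9 CPM in males (median 1.08 CPM) and 0 to 164 CPM in females (median 4.65 CPM), with a log2 fold change of -2.27 (SE 0.89, adjusted p = 0.0399). This call was lost in 13 of the 24 fits that left out a single fish (NF-control replicates 1, 3, 4 and 5, OF-control replicates 1, 2, 4 and 5, NF-training replicates 1, 4, 5 and 6, and OF-training replicate 1), with adjusted p up to 0.102. CYP24A1 had 0.128 to 141 CPM in males and 0.802 to 64.9 CPM in females (log2 fold change -1.20, SE 0.91), and CYP2R1 had 2.70 to 191 CPM in males and 0.424 to 96.3 CPM in females (log2 fold change -0.41, SE 0.89). Neither passed the test. CYP26B1, which breaks down retinoic acid, had at most 1.21 CPM in males and 2.62 CPM in females and was not called (log2 fold change -0.63, SE 0.37).

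By the standard deviation of log2 CPM within cells of sex and group, the order of spread was CYP27B1 (1.80), CYP2R1 (1.61), cyp39a1 (1.26), CYP24A1 (1.11) and cyp3c3 (0.996). The highest CYP24A1 value, 141 CPM, was in NF-control replicate 5, a male, and the highest values of CYP27B1 and cyp39a1, 164 and 24.6 CPM, were both in NF-control replicate 1, a female with a low vitellogenin share. The highest CYP2R1 value, 191 CPM, was in OF-training replicate 4, a male. CYP27B1 and cyp39a1 thus shared their highest fish, which also had 96.3 CPM of CYP2R1. CYP2R1, CYP24A1 and cyp3c3 each had another highest fish. OF-control replicate 6 was the lowest fish of both CYP27B1 and CYP2R1, and the other genes had other lowest fish. A relation between these genes was not tested.

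**Figure D4:**
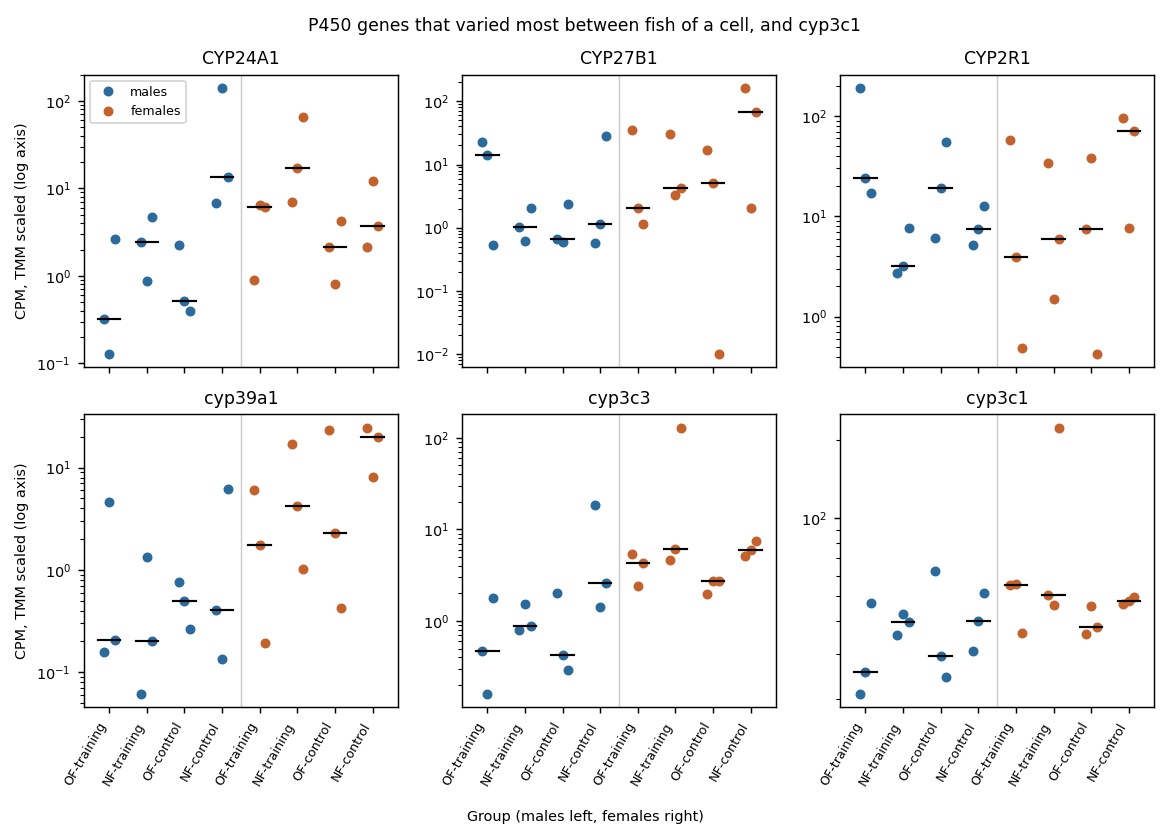
CPM of each fish on a log axis (values under 0.01, among them 0, are drawn at 0.01) for the 5 P450 genes with the largest spread within sex and group and for cyp3c1, with males left, females right and a bar at the median of the 3 fish. Values run from 0 to 164 CPM for CYP27B1, from 0.424 to 191 CPM for CYP2R1 and from 0.128 to 141 CPM for CYP24A1, and the trained normally fed female at 129 CPM of cyp3c3 is also the one at 224 CPM of cyp3c1.

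Training and overfeeding were compared with sex as a covariate, and no P450 gene was called by edgeR in any of these comparisons. The background was low as well, at 0.173% of all genes in NF-training against NF-control, 0.00616% in OF-training against OF-control, and 0% in both overfeeding comparisons (first OF-control with NF-control, then OF-training with NF-training) and in the interaction of training and feeding. At an unadjusted p under 0.05 the P450 genes numbered 6 (9.84%), 2 (3.28%), 15 (24.6%), 9 (14.8%) and 2 (3.28%), against 11.1, 5.26, 11.3, 9.01 and 4.47% of all genes in the same order. The comparisons share fish, so their values for a gene are not independent.

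In overfed untrained fish most P450 genes had lower values than in normally fed untrained fish, with no edgeR call and with CYP24A1 and cyp3c4 called by DESeq2. The log2 fold change, OF-control over NF-control, was negative for 50 of 61 genes, with a median of -0.41, beside a median of 0.00468 for all genes. In males alone it was negative for 44 genes and positive for 16 (median -0.36), and in females alone negative for 51 and positive for 7 (median -0.51). These single-sex fits had their own count filter, so fewer than 61 genes were tested, and their medians of all genes are not given here. Over both sexes it was negative for 49 without NF-control replicate 4 and for 47 to 51 without any single fish (medians -0.60 to -0.32). With library size scaling 54 were negative (median -0.61, beside -0.14 for all genes). Of the cell type markers, none was called. The median log2 fold changes were -0.79 for leukocytes, -0.29 for bile duct, -3.24 for intestine and -0.94 for the vitellogenic markers (vtg1, vtg2 and esr1, both sexes fitted together). They were 0.13 for hepatocytes, 0.26 for exocrine pancreas, -0.07 for red blood cells and -0.70 for testis, the last from 1 gene. The 4 leukocyte markers matched, none at 0 in all fish, summed to 72.1 to 137 TPM in OF-control and 65.0 to 473 TPM in NF-control fish. The 473 TPM was in NF-control replicate 4. The 4 bile duct markers matched summed to 149 to 384 TPM in OF-control and 143 to 508 TPM in NF-control fish. The 4 intestinal markers summed to 132 to 1708 TPM in OF-control (median 837 TPM) and 183 to 3357 TPM in NF-control fish (median 535 TPM). The vitellogenic markers summed to 223511 to 235061 TPM in OF-control females and 135777 to 267518 TPM in NF-control females. In males they summed to 15.5 to 129 TPM in OF-control and 51.0 to 297 TPM in NF-control. Without NF-control replicate 4, the male highest in intestinal markers, the P450 median was -0.46. Leaving out 1 fish does not test the part of the markers, and the part of none of them, the intestinal ones included, was tested. The genes of a run share sequence and neighbours, and the members are not independent of each other. By subfamily the values were negative for 7 of 8 CYP2K, 5 of 6 CYP2X, 4 of 5 CYP2P, 4 of 6 CYP2AA, 3 of 4 CYP3C, 3 of 3 CYP2AD, 3 of 3 CYP46A and 3 of 6 CYP27A genes.

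The smallest p with overfeeding belonged to cyp3c4. It had 0.477 to 3.14 CPM in OF-control fish (median 1.39 CPM) and 0.698 to 6.19 CPM in NF-control fish (median 4.5 CPM). The groups overlapped, and the 3 lowest fish were OF-control males. The log2 fold change was -1.77 (SE 0.39, edgeR adjusted p = 0.159, DESeq2 adjusted p = 0.00799), and -1.10 without NF-control replicate 4, the male with high intestinal markers.

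CYP24A1 had 0.398 to 4.24 CPM in OF-control fish (median 1.47 CPM) and 2.15 to 141 CPM in NF-control fish (median 9.39 CPM). Its log2 fold change was -4.73 (SE 1.22, edgeR adjusted p = 0.22, DESeq2 adjusted p = 0.00243), and -2.49 without NF-control replicate 5, the male at 141 CPM. The gene cyp2ad3 had 5.26 to 39.5 CPM in OF-control fish (median 21.9 CPM) and 31.6 to 52.4 CPM in NF-control fish (median 36.2 CPM), and only 1 OF-control fish lay inside the NF-control range (log2 fold change -0.92, SE 0.32, adjusted p = 0.317).

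Between the trained groups, the value for OF-training over NF-training was negative for 39 of 61 genes with a median of -0.23. It was negative for 52 with library size scaling (median -0.45, beside -0.31 for all genes), for 45 on log2(TPM + 1), for 48 on log2(TPM + 0.1) and for 36 without OF-training replicate 3 (median -0.14). Gene by gene, the interaction of training and feeding compares this difference with that in untrained fish, and it called no P450 gene. Its value was positive for 41 of 61 genes, with a median of 0.19, beside 0.00257 for all genes. Whether the shift of the family as a whole differed was not tested. The gene cyp2x7 had 1.45 to 13.2 CPM in OF-training fish (median 11.6 CPM) and 11.4 to 44.8 CPM in NF-training fish (median 22 CPM), with a log2 fold change of -1.29 (SE 0.48, adjusted p = 0.528). The values for cyp3c3 (-2.80, SE 1.0, adjusted p = 0.528) and cyp3c1 (-0.79, SE 0.35, adjusted p = 0.551) rested on NF-training replicate 3, without which they were -0.34 and -0.15.

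Training in normally fed fish left the family centred near 0, with 32 of 61 values positive and a median of 0.04. The smallest p belonged to cyp1d1, with 16.5 to 87.3 CPM in NF-training fish (median 46.8 CPM) and 6.33 to 47.2 CPM in NF-control fish (median 20.1 CPM). Within each sex the trained fish had the higher median, and the log2 fold change was 1.21 (SE 0.42, adjusted p = 0.289). The low-level gene cyp2x6 had 0.892 to 2.48 CPM in NF-training fish and 0.698 to 1.86 CPM in NF-control fish (log2 fold change 0.65, SE 0.26, adjusted p = 0.373).

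In overfed fish 46 of 61 values of OF-training over OF-control were positive, with a median of 0.21. On TPM, the count of positive values was 34 with a pseudocount of 1 and 32 with a pseudocount of 0.1. The smallest p belonged to a pair of CYP27A1 genes. ENSDARG00000069186 had 2.90 to 6.25 CPM in OF-training fish (median 5.32 CPM) and 2.29 to 4.62 CPM in OF-control fish (median 3.19 CPM), for a log2 fold change of 0.57 (SE 0.21), and ENSDARG00000088013 had 2.22 to 12.7 CPM in OF-training fish (median 9.80 CPM) and 2.41 to 9.19 CPM in OF-control fish (median 5.63 CPM), for a log2 fold change of 0.68 (SE 0.25). The third was cyp2y3, with 94.8 to 262 CPM in OF-training fish and 34.5 to 195 CPM in OF-control fish (log2 fold change 0.71, SE 0.34). The adjusted p of all 3 was 0.916.

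**Figure D5:**
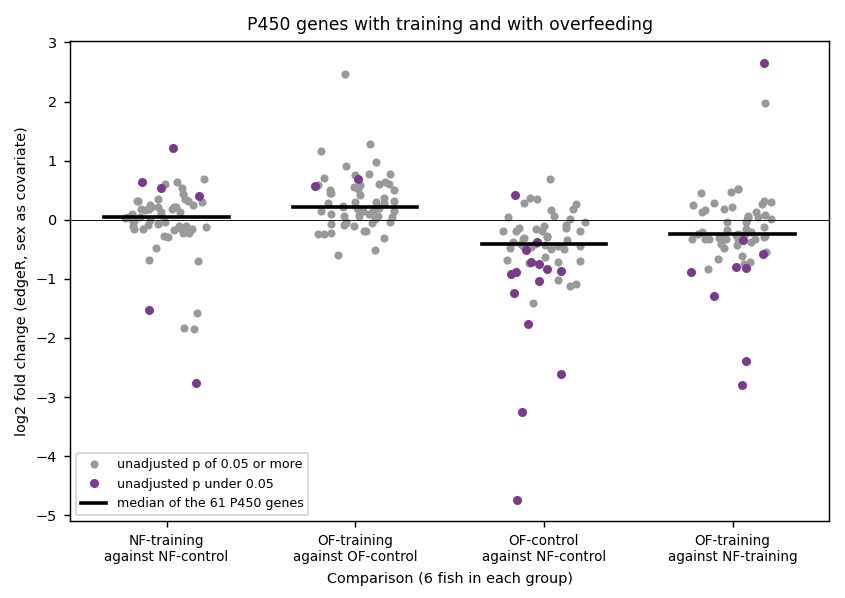
Log2 fold change of the 61 P450 genes in the 4 comparisons of groups (edgeR, sex as covariate, 6 fish in each group), with 1 point per gene, purple for an unadjusted p under 0.05, and a bar at the median of the P450 genes. The medians lie at 0.04, 0.21, -0.41 and -0.23, and no gene passed an edgeR adjusted p of 0.05 in any of them.

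In the interaction of training and feeding, CYP27B1 had a value of 5.22 (SE 1.69), cyp3c4 of 1.23 (SE 0.55) and CYP2R1 of 3.10 (SE 1.53), all with an adjusted p of 0.999. Without NF-control replicate 4 the value of cyp3c4 was 0.56, and without OF-training replicate 4 that of CYP2R1 was 1.5. The levels behind the first were 0.533 to 34.6 CPM in OF-training, 0.626 to 30.3 CPM in NF-training, 0 to 16.7 CPM in OF-control and 0.569 to 164 CPM in NF-control fish. All 4 groups overlapped.

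Whether training or overfeeding acted differently in males and females was tested on the 8 cells of group and sex. No P450 gene was called in the sex difference of the training effect in normally fed fish, in the sex difference of the overfeeding effect in untrained fish or in the variation of the sex difference over the 4 groups, and the background was 0% in each. At an unadjusted p under 0.05 there were 6, 6 and 4 P450 genes, against 7.47, 5.57 and 5.83% of all genes (P450 genes 9.84, 9.84 and 6.56%). DESeq2 called cyp2k22 in the first and in the third of these tests.

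The gene cyp2k22 had the smallest p in all 3. In males it had 796, 843 and 908 CPM in NF-training against 367, 594 and 891 CPM in NF-control, and in females 0.390, 0.743 and 1.0 CPM in NF-training against 2.05, 7.01 and 14.1 CPM in NF-control. Trained and untrained males overlapped, and the 3 untrained females lay above the 3 trained ones. The sex difference in the training effect was 3.97 (SE 0.84, adjusted p = 0.536). The single-sex fit of the training effect gave 0.46 in males, while the fit over both sexes gave -1.52 (SE 0.60, adjusted p = 0.355), and -0.84 without NF-control replicate 2, the female at 14.1 CPM. Overfed untrained fish had 853, 867 and 966 CPM in males and 0.826, 1.0 and 4.16 CPM in females, for a sex difference in the overfeeding effect of 2.46 (SE 0.79, adjusted p = 0.776).

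CYP24A1 and cyp3c3 followed in the sex difference of the training effect, with -6.67 (SE 1.72) and -5.74 (SE 1.55), both with an adjusted p of 0.536. The fish behind these values were those named above: NF-control replicate 5 at 141 CPM of CYP24A1, and NF-training replicate 3 at 129 CPM and NF-control replicate 4 at 18.6 CPM of cyp3c3. Leaving out single fish gave -7.68 to -4.28 for CYP24A1 and -6.3 to -2.63 for cyp3c3. In the sex difference of the overfeeding effect CYP24A1 had -4.38 (SE 1.71), and -1.99 without NF-control replicate 5, and cyp3c2 had -1.41 (SE 0.56).

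Of 13 genes tested that supply P450s with electrons or bind their heme, 7 were higher in males, 1 was lower and 5 were not called (61.5% called, against 45.8% of all genes). The abundant P450 reductase gene por ENSDARG00000059035 had 367 to 1460 CPM in males and 235 to 627 CPM in females (log2 fold change 0.86, SE 0.17, adjusted p = 0.000336). The ferredoxin gene fdx1, the donor of mitochondrial P450s such as CYP27A1, had 34.8 to 171 CPM in males and 16.7 to 37.2 CPM in females (log2 fold change 1.67, SE 0.24, adjusted p = 4.38e-06). The ferredoxin reductase fdxr, the cytochromes b5 cyb5a and cyb5b, the b5 reductase cyb5r3 and the heme-binding partner pgrmc1 were also higher, with log2 fold changes of 0.74, 0.61, 1.32, 0.80 and 0.76, and pgrmc2 was lower with -1.46.

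Of 12 genes of heme synthesis and breakdown tested, 4 were higher and 3 were lower in males and 5 were not called (58.3% called, against 45.8% of all genes). The first enzyme of heme synthesis, alas1, had 40.5 to 176 CPM in males and 162 to 647 CPM in females (log2 fold change -1.67, SE 0.23, adjusted p = 2.47e-06), and urod and hmbs ENSDARG00000055991, both of the same pathway, were lower too, with -1.88 and -0.40. The synthesis genes uros and fech were higher with 0.52 and 0.88, as was the heme oxygenase hmox2 with 0.38. The heme oxygenase hmox1, which breaks heme down, had 6.29 to 233 CPM in males and 2.05 to 41.7 CPM in females (log2 fold change 2.28, SE 0.54, adjusted p = 0.00144).

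Of 23 receptor and partner genes known to control P450s, 3 were higher and 4 were lower in males and 16 were not called (30.4% called, against 45.8% of all genes). The nuclear receptor hnf4a had 85.6 to 183 CPM in males and 32.8 to 108 CPM in females (log2 fold change 1.12, SE 0.17, adjusted p = 8.9e-06). The pregnane X receptor nr1i2 and the glucocorticoid receptor nr3c1 were higher with 0.54 and 0.49. The estrogen receptor esr1 was lower with -7.81 (adjusted p = 9.08e-15), the retinoic acid receptor raraa with -2.75, the androgen receptor ar with -1.31 and rxrga with -0.48. The aryl hydrocarbon receptor ahr2 did not pass the test (0.02, SE 0.08). No gene of these 3 lists was called with training or overfeeding.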

How the data were processed

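Liver RNA of 24 zebrafish was sequenced on a BGISEQ-500. Per the labels, the authors trimmed reads with Trim Galore 0.6.4 and quantified them with Kallisto against GRCz11. The deposited values are estimated counts for every gene, unscaled, and TPM, scaled for transcript length and library. Kallisto shares reads among similar transcripts, so counts of close paralogs are uncertain. The step from transcripts to genes is not given in the sources used here.

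Estimated counts were rounded to whole numbers and tested with edgeR 4.0.16 in R 4.3.3 (TMM scaling, filterByExpr by group with a minimum count of 10, which kept 16223 genes and all 61 members, quasi-likelihood test, Benjamini-Hochberg adjustment, threshold 0.05). A model of group and sex over the 24 fish gave the contrasts, and a model of the 8 cells gave within-group and interaction tests. The standard error is the log2 fold change divided by the square root of F. Depth was 19315642 to 21399321 counts per fish. Vitellogenin limits precision for low genes in females. CPM are TMM-scaled, and TPM are used between genes. The procedure was tested on simulated data.

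Alternatives were DESeq2 1.42.0, limma 3.58.1 (voom, and log2 TPM with pseudocounts of 1 and 0.1), library size scaling, vitellogenin genes removed, other filters, a replicate block, no sex term, single sexes, single pairs of groups and leaving out each fish. Leaving out both females with a vitellogenin share under 50% was chosen after seeing the data. Gene names came from an Ensembl name table (29201 of 32520 genes) and the order of protein-coding genes from RefSeq (54 of 61 members matched). Its assembly differs from GRCz11, so no coordinates are given. In 276 pairs of fish, at least 19786 genes had different counts, so no library was counted as a repeat.

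Named were the 10 members with the highest mean TPM, the 10 higher and 10 lower members with the largest log2 fold change among those called between the sexes with the same sign in all 4 groups, for each treatment or interaction test the members called and the 3 with the smallest unadjusted p, and the member with the highest mean TPM of each subfamily of 2 or more. Genes outside the family came from lists of electron donors, heme enzymes, regulators and cell type markers. The other P450 genes named, among them cyp2aa2, cyp2k19, cyp2ad6, CYP26B1 and the genes below the count rule, were chosen after their values were seen. The members and lists were chosen with earlier results of these data known.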

Additional observations from a re-analysis of the deposited data

Results flagged for a closer look

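Within each group of 6 fish, the highest or the lowest fish lay far from the other 5 in 10 of 156 gene and group combinations examined. The measure was the gap to the nearest fish over the range of log2 CPM, set against the 95% critical value of Dixon. For fish of 1 kind, chance gives about 1 in 20. Each group mixed 3 males and 3 females, and many genes examined were chosen for a sex difference, so that rate need not hold. All 10 values were from females, and 9 of them were low. In some of the 10 the nearest fish was a male.

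NF-training replicate 3 held 4 of them. It had 180 CPM of cyp2ad2 (nearest fish 428 CPM), 94.2 CPM of CYP1A1 (nearest 383 CPM), 22.5 CPM of cyp2n13 (nearest 202 CPM) and, as the only high value, 224 CPM of cyp3c1 (nearest 50.8 CPM). This was the female with the lowest vitellogenin share (29.3%) and the highest sum of bile duct markers (661 TPM). Their part in these values was not tested.

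OF-training replicate 3 held 5. It had 109 CPM of CYP1A1 (nearest 326 CPM), 79.9 CPM of cyp2n13 (nearest 152 CPM), 0.676 CPM of cyp2x6 (nearest 1.24 CPM), 2.90 CPM of CYP27A1 ENSDARG00000069186 (nearest 4.83 CPM) and 1.45 CPM of cyp2x7 (nearest 7.12 CPM). This fish also had the lowest sum of hepatocyte markers (29508 TPM) and the highest oocyte marker sum (4.63 TPM), whose part was not tested. OF-control replicate 6 had 92.3 CPM of CYP1A1 (nearest 262 CPM).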

How the results depend on the processing

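P450 genes called between males and females numbered 30 with DESeq2, 26 with limma voom, 28 without vitellogenin genes, 25 with no filter, 32 with a mean of at least 10 counts, 29 without both low-vitellogenin females and 25 to 32 without single fish, but 49 with library size scaling. Replicate numbers did not pair the fish (same-numbered fish of a sex, r -0.16 to 0.43, median 0.03, 18 pairs, against a median of -0.01 for 90 other pairs), and a replicate block called 24, of which 23 were shared. Within groups, DESeq2 called 10 in NF-control. Library size scaling called 39 in OF-training, 31 in NF-training, 42 in OF-control and 35 in NF-control, log2(TPM + 1) called 23, 21, 23 and 20, and log2(TPM + 0.1) called 24, 20, 23 and 18. Single fish left out gave 8 to 17 in OF-training (8 without its replicate 3), 6 to 12 in NF-training (6 without its replicate 3), 10 to 14 in OF-control and 5 to 9 in NF-control. DESeq2 called 2 genes in OF-control against NF-control (CYP24A1 and cyp3c4), 1 in the sex difference of the training effect and 1 in the variation of the sex difference (both cyp2k22). The fits without single fish were made with edgeR alone, where every treatment count was 0 with all fish and stayed at 0. They do not bear on the DESeq2 calls. The shares of all genes called given above hold for the main edgeR setting alone, and those under the other settings are not given here. The female median P450 sum was 2044 TPM after rescaling without vitellogenin.

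Signs of male against female turned with library size scaling for cyp2x8 (0.90), cyp3c2 (0.26), CYP2U1 (0.61), CYP20A1 (0.75), cyp2aa8 (0.96), cyp2p10 (1.0), cyp3c1 (0.71), CYP24A1 (0.082), cyp2x7 (1.05) and CYP2R1 (1.13). They turned on log2(TPM + 1) and log2(TPM + 0.1) for cyp2x8 (0.11 and 0.10), cyp2aa8 (0.10 and 0.21), cyp2p10 (0.20 and 0.26), cyp3c1 (0.12 and 0.12), cyp2x7 (0.50 and 0.63) and CYP2R1 (0.74 and 1.03). CYP2R1 also turned with limma voom (0.55), a replicate block (0.66) and without NF-training replicate 1 (0.21, in a range of -0.92 to 0.21 without single fish), and cyp2x7 turned without both low-vitellogenin females (0.10) and without NF-control replicate 1 (0.057, in a range of -0.31 to 0.057). The training value of cyp2k22 in normally fed fish turned with no sex term (0.44) and in males alone (0.46). Beyond the construction of the scalings, causes were not tested. With 3 fish per cell, low-count genes in females, where vitellogenin took most counts, had the least precision.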

Other observations

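The 20 P450 genes below the count rule had few counts apart from 1. The 7 that take part in making steroid hormones (both copies of CYP11A1, CYP17A1, cyp17a2, CYP19A1, cyp11c1 and cyp21a2) held between 3 and 139 counts over all 24 fish, and CYP19A1, which makes estrogen, held 4. CYP7B1, an oxysterol hydroxylase of bile acid synthesis, held 216 counts, with at most 42 in a fish.

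The exception, cyp46a1.1, held 1154 counts over all fish, of which 1125 (97.5%) were in NF-control replicate 4, the male with the high fabp2, vil1 and cdx1b values, and at most 4.06 were in any other fish. The same fish had 14 of the 16 counts of CYP26A1, which breaks down retinoic acid, and it was the highest fish in 6 of the 20 genes. Among these 6, CYP11A1 ENSDARG00000092696 was a tie at 1 count and cyp2aa4 rested on 2 counts. These values were looked up after the fish had been seen to stand apart, and no test was made.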
